A study of Bos taurus with 24 samples.

Results

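Genes annotated with a single exon bin were examined in bulk RNA from the testes of Holstein bulls. An exon bin is a stretch of exon that is counted as a unit, and a gene with a single bin has no annotated exon boundary that divides its reads. Members were the features with exactly 1 bin and a mean of at least 10 counts over the 24 libraries. Features that join overlapping genes and 8 features named in the rule, some mitochondrial genes among them, were left out. This gave 608 genes among 24525 gene features. Other mitochondrial genes may remain among the 608, because their identifiers could not be paired with gene names. The read counts themselves chose the members, so the genes were chosen by their bin number and mean count, and their levels are described here without a test.

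There were 3 diet groups of 8 bulls, and each library came from a separate animal. Bulls on the high diet (HD) received 20% crude protein and 67.9% total digestible nutrients, bulls on the medium diet (MD) 17% and 66%, and bulls on the low diet (LD) 12.2% and 62.9%. The diets ran from 2 wk to 32 wk of age, after which all bulls ate the medium diet, and testicular parenchyma was taken at 72 wk. Tissue was therefore sampled long after the diets had ended, and HD, MD and LD name an early-life diet.

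Most protein-coding genes are split by introns, which are spliced out of the transcript. Genes without introns include replication-dependent histones, many G protein-coupled receptors, the protein-coding genes of the mitochondrial genome, many small RNAs, and retrocopies, which arise when a spliced transcript is copied back into the genome. In the testis, retrocopies are known to be used by germ cells, in some cases while an X-linked parent gene is silent in meiosis. A retrocopy can be nearly identical to its parent gene, so reads may be split between such copies or lost. The identifiers of the 608 genes could not be paired with gene names (0 matched), so which of these classes a gene belongs to is not given, and neither are genome positions. Genes are therefore called here by their rank in mean read count, and only 4 identifiers are printed. A rank by reads is not a rank by transcripts, because gene length was not used.

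Few single-bin genes reached the required depth. Of 5990 features with a single bin, 2654 had no read in any library and 10.2% reached a mean of 10 counts. The share was 42.3% of genes with 2 bins and 80.3% of features with 3 or more bins. Among features that reached it, the median mean count was 80.4 for a single bin, 96.8 for 2 bins and 304 for 3 or more. These counts are per gene and not per length. At the edge of the rule, the 3 lowest members had means of 10.1, 10.2 and 10.3 counts, and the 3 highest single-bin genes left out had means of 9.88, 9.92 and 9.96.

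Reads were concentrated on a few members. Mean counts ran from 10.1 to 37377, with quartiles of 25.9, 80.1 and 315. There were 244 genes with a mean of 10 to 50 counts, 169 with 50 to 200, 119 with 200 to 1000 and 76 with 1000 or more. The gene ranked 1 held 8.55% of all member counts, the 3 highest held 22.8%, the 20 highest 54.5% and the 100 highest 86.7%. Reads were present in every library for 591 members, and 418 had at least 10 counts in each.

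Libraries held 9163675 to 21902110 counts on genes, and between 601 and 608 members had a read in any given library. HD bull 14 stood apart before any diet was compared, and it was also the smallest library. CPM are counts scaled to a fixed library total, here without the TMM factors used for all other CPM. On this scale, 35 of the 608 members (5.76%) were more than 2 times higher in HD bull 14 than in every other library. The share was 2.57% over the 14832 features with a mean of at least 10 counts. In any other library at most 7 members stood out in this way. HD bull 14 was also more than 2 times below every other library for 35 members (5.76%), against 3.86% of all features. At most 17 members were that low in any other library. Results that rest on this bull are given with and without it.

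In summed reads, members took 3.07 ± 0.513% of the counts of a library (SD, n = 24). The share was 2.74% at the lowest, 3.35% at the median and 4.97% at the highest in HD bulls. It was 2.44%, 2.84% and 3.28% in MD bulls and 2.65%, 2.91% and 3.47% in LD bulls. The ranges overlapped, and the highest value belonged to HD bull 14, for which counting error alone gave an exact 95% binomial interval of 4.96% to 4.99%. The next HD bull was at 3.60%. The HD mean was 3.41 ± 0.701% (n = 8) with this bull and 3.19 ± 0.332% (n = 7) without it, beside 2.84 ± 0.296% for MD and 2.95 ± 0.271% for LD (n = 8 each).

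The 7 genes with the most reads were then summed apart from the other 601, a split made after their values were seen. Their share of counts was 1.41 ± 0.470% for HD bulls, 0.938 ± 0.314% for MD and 1.06 ± 0.339% for LD (SD, n = 8). Without HD bull 14 the HD share was 1.31 ± 0.389%. The other 601 members took 2.00 ± 0.342%, 1.90 ± 0.127% and 1.89 ± 0.131% respectively, and 1.88 ± 0.106% in HD without bull 14. The HD mean thus lay farther from the MD and LD means in the 7 genes than in the other 601, with group ranges that overlapped. This describes the 2 sums and not each of the 7 genes. No p-value is given for these sums, since they are scores over chosen members.

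**Figure D1:**
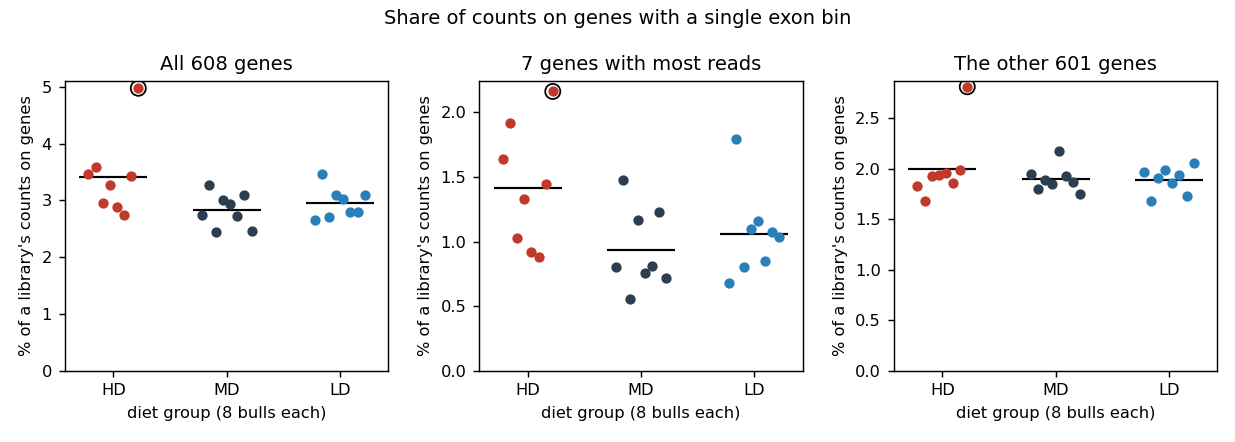
Each point is a bull, and the vertical axis is the percent of its counts on genes that fell on members, on the 7 members with the most reads, and on the other 601. Bars are group means (8 bulls a diet) and the circle marks HD bull 14, which is highest in each panel, at 4.97%, 2.16% and 2.81%.

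The gene with the most reads was spread widely within each diet. The gene ranked 1 lay at 1373 CPM at the lowest, 2694 at the median and 8817 at the highest in HD bulls, at 868, 1627 and 3984 in MD and at 1097, 1787 and 4838 in LD. The groups overlapped, and 3 of the 8 HD bulls lay above every MD bull. Its HD minus MD log2 fold change was 0.82 ± 0.36 (SE) and did not pass the threshold (edgeR quasi-likelihood test, Benjamini-Hochberg adjusted p = 0.140). As each bull was left out it ran from 0.50 without HD bull 8 (adjusted p = 0.356) to 1.02 without MD bull 5 (adjusted p = 0.0754), and it passed in 4 of the 24 fits. Without HD bull 14 it was 0.94 ± 0.35 (adjusted p = 0.0770).

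The gene ranked 2 was higher in HD than in MD bulls. It lay at 1377, 3539 and 10765 CPM (lowest, median and highest) in HD bulls, at 578, 1016 and 2915 in MD and at 745, 2051 and 4266 in LD. HD bull 14 held the highest value, and the next HD bull was at 6130. The log2 fold change of HD over MD was 1.42 ± 0.42 (edgeR adjusted p = 0.0702), and 1.06 ± 0.38 without HD bull 14 (adjusted p = 0.0728). It passed in 16 of the 24 fits that left out a bull. The gene ranked 6 lay at 606, 1111 and 3038 CPM in HD bulls, at 309, 558 and 1419 in MD and at 368, 824 and 1593 in LD. It was also higher in HD than MD, by 1.02 ± 0.36 on the log2 scale (edgeR adjusted p = 0.0840), and passed in 15 of the 24 fits that left out a bull.

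Some abundant genes did not pass the test between HD and MD. The gene ranked 5 had a coefficient of variation of 14.9% over the 24 bulls and a log2 fold change of HD over MD of 0.16 ± 0.12. The gene ranked 4 was at 0.06 ± 0.19, and at -0.06 ± 0.18 without HD bull 14. Neither passed the test in edgeR (adjusted p = 0.381 and 0.843). The gene ranked 10 had a negative fold change, -0.55 ± 0.25, which did not pass either with all bulls (adjusted p = 0.144). It passed in 4 of the 24 fits that left out a bull.

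The gene ranked 12 was the member with the smallest unadjusted p between HD and LD among those higher in HD. It lay at 342, 556 and 943 CPM in HD bulls, at 295, 364 and 469 in MD and at 282, 356 and 475 in LD. MD and LD bulls covered nearly the same range, and the upper HD bulls lay above both. HD exceeded MD by 0.66 ± 0.18 on the log2 scale (edgeR adjusted p = 0.0702) and LD by 0.72 ± 0.18 (adjusted p = 0.206). The difference from MD passed in 16 of the 24 fits that left out a bull.

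Some abundant genes were far higher in HD bull 14 than in the other bulls. The gene ranked 7 reached 6442 CPM in this bull, with the next HD bull at 1511 and medians of 758 for HD, 531 for MD and 917 for LD. The gene ranked 11 reached 4250 CPM in it, against 654 in the next HD bull and 718 in the highest LD bull. The log2 fold change of HD over MD of the gene ranked 7 was 1.18 ± 0.43 with all bulls (edgeR adjusted p = 0.0923) and 0.34 ± 0.30 without that bull (adjusted p = 0.420). For the gene ranked 11 it was 1.62 ± 0.52 with all bulls (adjusted p = 0.0723) and 0.51 ± 0.35 without that bull (adjusted p = 0.296). Both calls ended when it was left out.

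Diets were then compared over all 15005 features that passed a filter on low counts, of which 605 were members. The other 3 members did not pass that filter. Features with an adjusted p below 0.1 were called. In the comparison of HD with MD, 70 of the members tested were higher in HD and 16 were lower. Over all features tested, 8.68% were called higher and 5.42% lower. The members' shares were 11.6% higher and 2.64% lower. Genes with 2 bins had 8.12% higher and 3.38% lower. Counting both directions, 14.2% of the members tested were called beside 14.1% of all features, so the total number of calls was close to the background. In bulk tissue, fewer cells of a type and less RNA per cell cannot be told apart.

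All calls lay close to the threshold, with adjusted p from 0.0702 to 0.0959. At an adjusted p under 0.05 there was none. Leaving out any 1 of HD bulls 7, 8 and 13 and MD bulls 4, 6, 16, 17 and 19 left 0 members called, and 1 of 15043 to 15084 features overall in each of these fits. Without HD bull 12 there were 109 members higher and 45 lower (18% and 7.43%), beside 14.6% and 12.1% of all features. Without HD bull 14 there were 79 higher and 37 lower, and 51 of the 70 higher calls and all 16 lower calls were still called. In that fit 12.4% of all features were called higher and 11.5% lower. Lower calls numbered 26 (4.3%) without HD bull 11, 27 (4.46%) without MD bull 5 and 36 (5.95%) without MD bull 18, beside 8.47%, 8.47% and 10.1% of all features.

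The fold changes of the 70 higher members ran from 0.46 to 2.71 on the log2 scale, with a median of 0.84 and a median SE of 0.27, and 30 of them exceeded 2-fold. With HD bull 14 left out, the same 70 genes ran from 0.19 to 1.90, with a median of 0.65, and 12 exceeded 2-fold. Of the 20 members with the most reads, 8 were among them. The 16 lower members ran from -1.19 to -0.44, with a median of -0.87, and 4 exceeded 2-fold. Without that bull they ran from -1.31 to -0.45, with a median of -0.83. None of the 16 was among the 76 members with a mean of 1000 or more counts, and the most abundant of them ranked 113. No member had HD and MD groups that did not overlap, and 0.0467% of all features had such groups.

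Direction followed read level, among members and among all features. With 1000 or more counts, 18 of 76 members were higher and 0 lower, beside 620 and 66 of 3346 features. With 200 to 1000 counts, 15 of 119 members were higher and 3 lower, beside 499 and 330 of 5049 features. With 50 to 200 counts, 20 of 169 members were higher and 6 lower, beside 134 and 279 of 3660. With 10 to 50 counts, 17 of 241 were higher and 7 lower, beside 47 and 138 of 2768. In the lower 2 levels, members thus had more higher than lower calls where all features had the reverse. With HD bull 14 left out this held at 50 to 200 counts, with 18 members higher and 13 lower beside 171 and 555 features. It did not hold at 10 to 50 counts, with 12 members higher and 17 lower beside 51 and 292 features. The median log2 fold change of HD over MD was 0.08 in members, 0.10 in genes with 2 bins and 0.00 in all features. In members and all features the medians were 0.04 and -0.03 without HD bull 14, and 0.04 and -0.01 without MD bull 19. Scaling by library size alone shifted all features down. The median was then -0.13, beside -0.21 for all features. In that fit 45 members (7.44%) were higher and 79 (13.1%) lower, beside 3.61% and 20% of all features. All 86 calls of the TMM fit kept their sign in it, and 45 of the 70 higher and all 16 lower ones were still called.

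**Figure D2:**
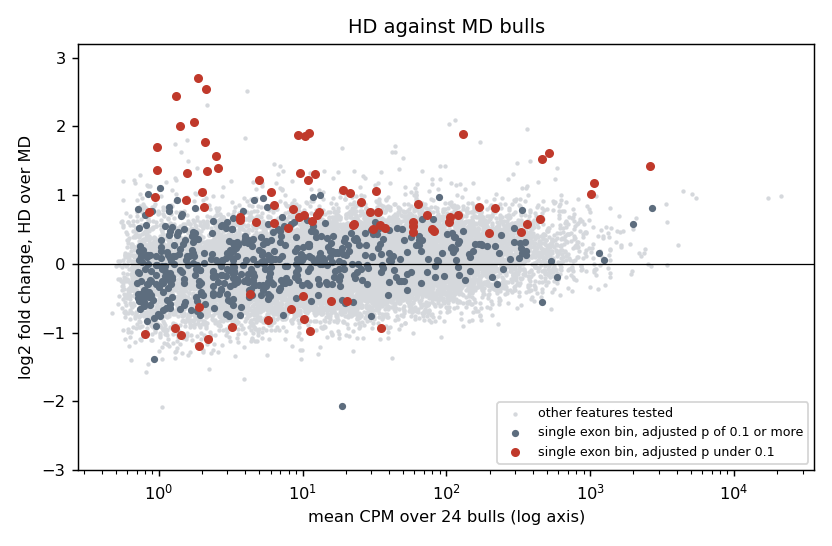
Each point is a feature. The horizontal axis is the mean CPM over 24 bulls (log axis) and the vertical axis is the log2 fold change of HD over MD. Single-bin genes are slate, or red where called, and other features are pale grey. The 70 called higher span the whole range of levels, and the 16 called lower lie below 100 CPM.

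By the rule for printed identifiers, the 2 higher and the 2 lower members with the smallest p were taken. ENSBTAG00000025882 (mean count 33.6) lay at 1.78 CPM at the lowest, 3.66 at the median and 7.43 at the highest in HD bulls, at 0.320, 1.11 and 2.23 in MD and at 1.07, 1.91 and 3.91 in LD. All 8 HD bulls were above the MD median and 6 were above the highest MD bull. The mean CPM was 4.02 ± 2.13 in HD and 1.33 ± 0.700 in MD (SD, n = 8). HD exceeded MD by 1.57 ± 0.36 on the log2 scale (SE; edgeR adjusted p = 0.0702).

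ENSBTAG00000047029 (mean count 142) lay at 4.73, 17.0 and 49.6 CPM in HD bulls, at 1.68, 3.81 and 10.4 in MD and at 1.03, 11.6 and 16.02 in LD. The value of 49.6 was HD bull 14, and the next HD bull was at 19.6. Again 8 of 8 HD bulls were above the MD median and 6 were above the highest MD bull. The log2 fold change of HD over MD was 1.91 ± 0.45 with all bulls (edgeR adjusted p = 0.0702), and it ran from 1.50 to 2.15 as each bull was left out. LD bulls also had a higher median than MD bulls, and the log2 fold change of MD over LD was -1.02 (edgeR unadjusted p = 0.0302), which did not pass adjustment.

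ENSBTAG00000040061 (mean count 84.1) was lower in HD bulls. It lay at 1.78, 3.97 and 5.56 CPM in HD bulls, at 4.86, 7.27 and 8.99 in MD and at 3.51, 6.21 and 8.42 in LD, and 6 HD bulls were below the lowest MD bull. The mean CPM was 3.92 ± 1.16 in HD and 6.96 ± 1.38 in MD (SD, n = 8). Relative to MD, its log2 fold change was -0.82 ± 0.20 (edgeR adjusted p = 0.0702) and relative to LD -0.69 ± 0.20 (adjusted p = 0.206).

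ENSBTAG00000010803 (mean count 18.9) was lower too. It lay at 0.577, 0.729 and 1.59 CPM in HD bulls, at 0.769, 1.63 and 2.65 in MD and at 0.779, 1.35 and 1.90 in LD, with 6 HD bulls below the lowest MD bull. Relative to MD, the log2 fold change in HD was -0.93 ± 0.28 (edgeR adjusted p = 0.0702). For the 4 genes, the adjusted p ran from 0.0296 to 0.162 as each bull was left out, and all 4 calls ended without any 1 of HD bulls 7, 8 and 13 and MD bulls 4, 6, 16, 17 and 19.

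**Figure D3:**
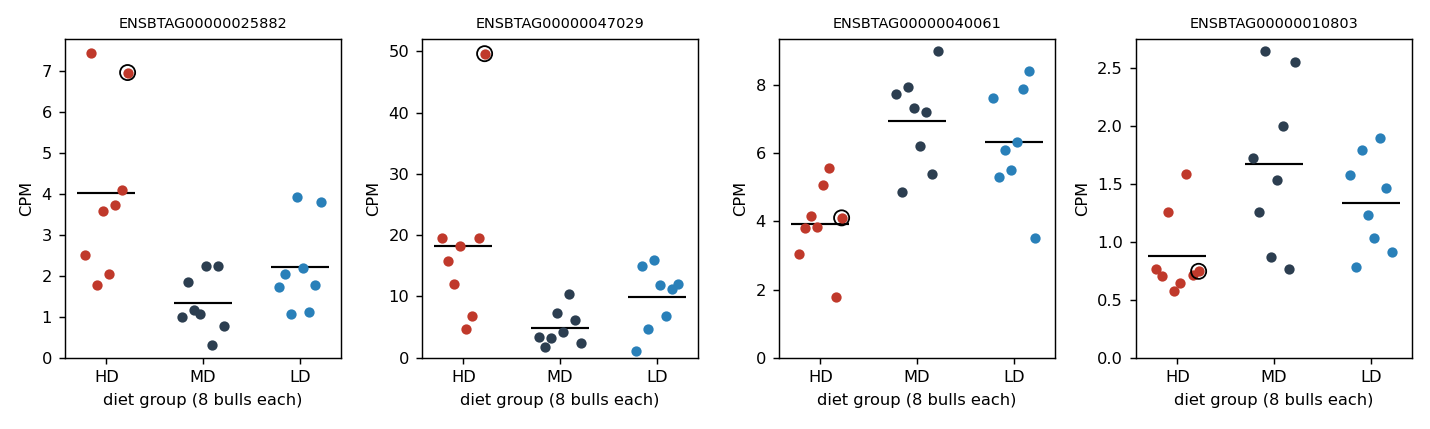
CPM of the 4 printed genes in each bull, with 8 bulls a diet, bars at group means and HD bull 14 circled. In the 2 panels on the left the HD points lie mostly above the MD points, and in the 2 on the right mostly below, with overlap in each panel.

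HD and LD were compared with the same HD bulls. No member was called by edgeR, with adjusted p of 0.206 or more. Taking unadjusted p below 0.05 gave 103 members (17.0% of those tested), beside 17.7% of all features. Of these, 78 were higher in HD, beside 11.1% of all features, and 25 were lower, beside 6.65%. The count of 103 ran from 75 to 137 as each bull was left out. It was 61 with the share of low-quality alignments as a covariate. No share over all features is given for these fits. DESeq2 called 18 members (2.96%) with its beta prior and also with defaults, beside 2.58% and 2.46% of the 21333 features with a read. Without HD bull 12, edgeR called 32 members (5.28%), beside 4.75% of all features. For the 70 members higher in HD than MD, the log2 fold changes of HD over LD had a median of 0.73 and ran from 0.12 to 2.34. For the 16 lower members they had a median of -0.57 and ran from -0.98 to -0.33. The HD bulls enter both comparisons, and these values are given side by side only.

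Between MD and LD no member was called by edgeR or DESeq2. Taking unadjusted p below 0.05, edgeR gave 6 members, beside 1.07% of all features. Of these, 1 was higher in MD, beside 0.546% of all features, and 5 were lower, beside 0.526%. The count of 6 ran from 2 to 10 as each bull was left out. DESeq2 gave 8 members (1.32%) with its beta prior and 11 (1.81%) with defaults, beside 1.23% and 1.27% of the 21333 features with a read. The median log2 fold change of MD over LD was -0.03 in members and 0.00 in all features.

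The largest HD to MD fold change among members that did not pass belonged to a gene with reads in 2 separate ranges. It was singled out after its values were seen. Its mean count was 286. In 11 bulls it lay at 18.3 CPM or more, and in the other 13 at 2.40 or less, with no bull between. The higher range held 2 HD bulls (18.3 and 36.9), 6 MD bulls (26.8 to 66.2) and 3 LD bulls (38.2 to 53.5). The lower range held 6 HD bulls (0.177 to 2.40), 2 MD bulls (0.283 and 0.488) and 5 LD bulls (0.275 to 1.16). The log2 fold change was -2.07 ± 1.11 (edgeR adjusted p = 0.214). Both ranges occurred in every diet, so bulls of the same diet lay as far apart as the 2 ranges.

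A few members had reads in only some bulls. A gene with a mean count of 12.3 was at 0 in 18 of 24 bulls, and its highest count was 81, in HD bull 11. The bulls at 0 were 7 HD, 6 MD and 5 LD bulls, so each diet held bulls with and without reads. Another gene, with a mean count of 38.8, was at 0 in 4 bulls and reached 381 in LD bull 24. A further gene, with a mean count of 23.8, reached 158 in MD bull 6. These 3 were the members that the filter left untested.

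Members had a wider median spread between bulls than features in general, a difference that was not tested. The median coefficient of variation of CPM was 33.5% in the members tested, with quartiles of 25.7% and 44.7%, against 29.6% in all features and 34.1% in genes with 2 bins. Members also had fewer reads, and counting error alone would give a median of 11.2% in members and 6.11% in all features. Within read levels the medians were 39.7% against 42.0% at 10 to 50 counts, 31.3% against 30.8% at 50 to 200, 29.0% against 26.2% at 200 to 1000 and 30.6% against 24.6% at 1000 or more. The members' median was thus above that of all features at all but the lowest level, and the gap was widest among the most abundant genes. Genes with 2 bins had medians of 38.7%, 32.8%, 30.6% and 28.7% at these levels. From 50 to 1000 counts these were higher than the members' medians. The overall medians were 31.1% in members and 27.3% in all features without HD bull 14.

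Among the members tested, 30 (4.96%) had a coefficient of variation over 100%, against 1.23% of all features. Without HD bull 14, 10 of these 30 (1.65% of the members tested) were still over it, against 0.453% of all features. The 5 most variable were all highest in HD bull 14. The most variable lay at 25.7 CPM in this bull, at 2.92 in the next HD bull and at no more than 1.08 in MD and 1.81 in LD bulls. The fifth, a gene with a mean count of 1569, lay at 1153 CPM in it and at 178 in the next HD bull. Without HD bull 14, the HD over MD log2 fold change fell from 2.71 to 0.83 for the most variable (edgeR adjusted p = 0.201) and from 1.89 to 0.76 for the fifth (adjusted p = 0.0887). Of the 35 members that stood out high in HD bull 14, 22 were among the 70 called higher in HD than MD. This bull is part of the HD mean, so the 2 lists are not independent. The matching share among the 381 features that stood out was not computed, so the count is not read as particular to members.

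At the other end, 21 members (3.47%) had a coefficient of variation under 15%, against 5.26% of all features. The steadiest member had a mean count of 1257 and a coefficient of variation of 7.96%. It lay at 80.1, 86.5 and 95.6 CPM in HD bulls, at 68.5, 85.2 and 100.9 in MD and at 83.2, 87.9 and 94.2 in LD. The groups overlapped, MD bulls had the widest range and LD bulls the narrowest, with a log2 fold change of HD over MD of 0.05 ± 0.09.

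**Figure D4:**
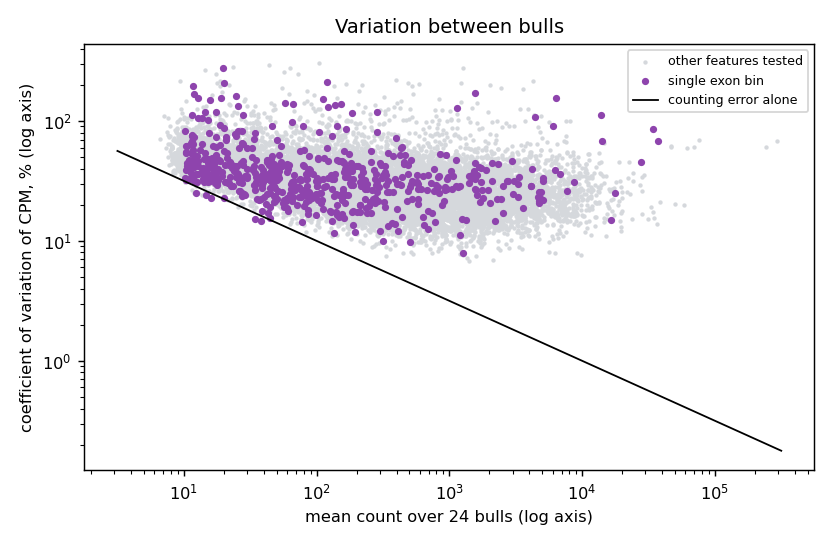
Each point is a feature, with the mean count over 24 bulls on the horizontal axis and the coefficient of variation of CPM in percent on the vertical axis (both log axes). The line is counting error alone. Members are drawn over the other features and reach from 7.96% to 275%.

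Library composition moved with many members. The share of reads that fell outside annotated exons was 12.3 ± 2.17% for HD bulls, 14.5 ± 3.28% for MD and 13.3 ± 1.83% for LD (SD, n = 8). In a model that also held diet, 256 members were called (edgeR adjusted p below 0.1), beside 52.6% of all features. Of these, 125 rose and 131 fell as the share went up, which were 20.7% and 21.7% of those tested. Over all features 28.1% rose and 24.5% fell. By read level, 51 members rose and 24 fell of 241 with 10 to 50 counts, beside 807 and 244 of 2768 features. With 50 to 200 counts, 37 rose and 36 fell of 169, beside 1215 and 633 of 3660. With 200 to 1000 counts, 21 rose and 44 fell of 119, beside 1459 and 1370 of 5049. With 1000 or more, 16 rose and 27 fell of 76, beside 687 and 1425 of 3346. Among members as among all features, rising calls were the more common at 10 to 50 counts and falling calls at 1000 or more. Slopes of the rising members had a median of 0.12 on the log2 scale per percentage point, and those of the falling members a median of -0.12. The rising members had a median mean count of 67.7 and the falling members of 242. Of the 20 members with the most reads, 3 rose and 8 fell.

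Of the 70 members higher in HD than MD, 33 also changed with this share, and of the 16 lower members 13 did, beside the 52.6% of all features called on it. With the share as a covariate, no member and 1 of all 15005 features was called between HD and MD, and the fold changes of the printed genes were 1.41, 1.82, -0.63 and -0.51 in the order given above. The members' median fell from 0.08 to 0.04. Reads set aside for low alignment quality were 11.5 ± 5.18% for HD bulls, 7.80 ± 1.33% for MD and 8.24 ± 1.82% for LD, with 20.99% in HD bull 12 and 17.9% in HD bull 8. With that share as a covariate, an alternative chosen after seeing the data, no member and no other feature was called either. The fold changes of the printed genes were then 1.07, 1.92, -0.82 and -0.95, and the members' median stayed at 0.08. No feature of 15005 changed with that share at the threshold. The part of these shares in the diet calls was not tested.

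Several of the most abundant members moved with COX1, the mitochondrially encoded cytochrome c oxidase subunit. COX1 itself is a single-bin feature left out by the rule, and it lay at 11875, 21114 and 60606 CPM in HD bulls, at 4893, 10705 and 28808 in MD and at 7120, 16161 and 45243 in LD. Correlations of log2 CPM were computed over the 24 bulls for the 20 members with the most reads, which gave 40 relations (Pearson and Spearman), with permutation tests of 100000 resamples. All of these values share the denominator of their library. The gene ranked 6 had r = 0.97 and rho = 0.98, and the gene ranked 3 had r = 0.95 and rho = 0.97. The gene ranked 1 had r = 0.95 and rho = 0.91. For these 3 genes the permutation p was 1e-05, the smallest these permutations can give (adjusted p = 3.08e-05).

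The relations of these 3 genes were also present within diets. Spearman's rho in HD, MD and LD bulls was 0.98, 0.88 and 0.98 for the gene ranked 6, 0.93, 0.93 and 1.00 for the gene ranked 3 and 0.93, 0.81 and 0.88 for the gene ranked 1. Without the 2 bulls farthest from the median COX1 level, r was 0.96, 0.97 and 0.94. The gene ranked 10 ran the other way, with r = -0.89 and rho = -0.92 (adjusted permutation p = 3.08e-05), and rho of -0.76, -0.88 and -0.88 within the diets. The relation of the gene ranked 5 did not pass (r = 0.21, adjusted permutation p = 0.372).

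The gene ranked 7 had different values by diet. Its rho with COX1 was 0.98 in MD and 0.90 in LD bulls but -0.26 in HD bulls, a difference that was not tested. The slopes of these genes on the share of reads outside exons were -0.26 for the gene ranked 1, -0.21 for the gene ranked 3, -0.27 for the gene ranked 6 and -0.30 for COX1 on the log2 scale per percentage point. The gene ranked 10 had a slope of 0.16. The genes ranked 1, 3 and 6 may be mitochondrial genes themselves, which could not be checked without gene names. Whether this share or the mitochondrial content of a library accounts for the relations was not tested.

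**Figure D5:**
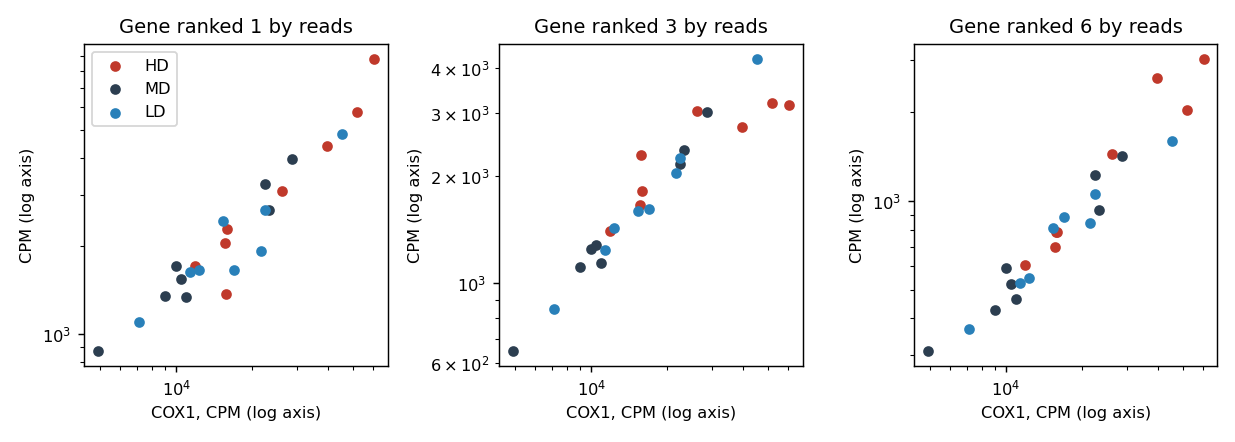
CPM of the genes ranked 1, 3 and 6 by reads against COX1 CPM in each of 24 bulls (both log axes, coloured by diet). Points of all 3 diets lie along a rising band in each panel.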

How the data were processed

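Testicular RNA of 24 bulls was prepared as stranded, poly(A)-selected libraries, 1 per bull, and sequenced from 1 end. Per the paper's methods and the submitters' processing notes, CASAVA 1.9 was used for base calls, and reads were mapped with TopHat2 2.0.10 and Bowtie 1.1.2 to UMD3.1. featureCounts (Subread) and DESeq2 are named for gene counts and their comparison. The exon bin files are named for DEXSeq, and the version and settings of the counting are not given in the sources used here. The deposited values are whole-number read counts per exon bin, which the authors did not normalize, with extra rows for reads that fell outside exons, that were ambiguous or that aligned poorly. Those rows were kept out of library totals.

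A gene count was the sum over its bins. A read that crosses bins of a longer gene can be counted in each, so the shares of library counts depend on this: using each gene's most covered bin alone raised the members' mean share from 3.07% to 9.86%. CPM are counts divided by the library size after scaling by TMM factors, set to a common total. The counts of members that stood out from every other library used library size without TMM factors. Differences between diets were tested with edgeR 4.0.16 under R 4.3.3 (filterByExpr, TMM, glmQLFit and glmQLFTest, all 24 libraries in 1 fit with diet as the factor), with Benjamini-Hochberg adjustment over all 15005 features tested and the study's threshold of 0.1. The SE of a log2 fold change is its size over the square root of F. DESeq2 1.42.0, other scalings and filters, covariates and each bull left out were alternatives. Correlations used Python 3.11.15, numpy 2.4.6 and scipy 1.17.1. The test was checked on simulated data. Each library came from a separate bull, so p-values reflect the spread between bulls. Binomial intervals cover counting error only.

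Named genes were to be the 20 members with the most reads, the called members with the smallest p, the 5 steadiest and 5 most variable, and those at the edge of the rule. Because 0 identifiers matched a gene name in the RefSeq table of assembly ARS-UCD2.0, gene lists, cell type markers and sequences were not used, and the testis label was not checked against markers. The members and lists were chosen with earlier results of these data known.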

Additional observations from a re-analysis of the deposited data

Results flagged for a closer look

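In groups of 8 bulls, the highest or lowest value was compared with its neighbour by Dixon's ratio at its 95% critical value. Of 63 groups, 13 stood out. Chance flags about 1 in 20 groups of genes not picked for their spread. That rate does not hold here, because the 5 most variable members were picked for it and the shares of counts are nested. HD bull 14 accounted for 9 of them. It was the highest HD bull in the share of counts on members (4.97%, next 3.60%) and on the 601 members outside the 7 with the most reads (2.81%, next 1.99%). ENSBTAG00000047029 lay at 49.6 CPM in it (next 19.6) and the gene ranked 7 by reads at 6442 CPM (next 1511). The 5 most variable members lay at 25.7 CPM (next HD bull 2.92), 113.3 (9.23), 18.6 (1.86), 9.82 (0.978) and 1153 (178).

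LD bull 2 was far above the other LD bulls in the share of counts on the 7 members with the most reads (1.79%, next 1.16%). It was also far above them for the gene ranked 1 (4838 CPM, next 2670) and the gene ranked 3 (4257 CPM, next 2247). MD bull 16 had 2.17% of its counts on the other 601 members (next MD bull 1.94%).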

How the results depend on the processing

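Between HD and MD, both counts of members, 70 higher and 16 lower, were 0 and 0 when low counts were kept, when the fit held the 2 diets alone and at an adjusted p below 0.05. They were also 0 and 0 when the outside-exon share, or the share of low-quality alignments (added after seeing the data), entered as a covariate. With library size alone as the scaling they were 45 and 79 and the median log2 fold change was -0.13. Among the 364 members with a mean of at least 50 counts, 53 (14.6%) were higher and 9 (2.47%) lower, beside 10.4% and 5.6% of all features at that level, and the median was 0.16, beside 0.04. They stayed within 1.5 times with DESeq2's size factors (76 and 16, beside 9.38% and 5.08% of all features), a mean of at least 10 counts (71 and 16, beside 8.86% and 5.66%), DESeq2 with its beta prior (82 and 23, beside 8.45% and 5.27%) and the most covered bin per gene (55 and 17, beside 6.38% and 3.26%). With the most covered bin per gene the members' median was 0.04, beside 0.01 in all features. Leaving out each bull gave 0 to 109 higher, 0 to 45 lower, medians of 0.04 to 0.10, 0 to 32 called between HD and LD and 0 between MD and LD. DESeq2 called 18 members between HD and LD, with its beta prior and with defaults. The number of members changing with the share of reads outside exons stayed between 228 and 278 as each bull was left out. The members' share of counts was 9.86% with the most covered bin per gene, a setting that counts fewer reads of genes with many bins. For the other changes the cause was not tested. No paired analysis was possible because the bulls' numbers are not shared between diets.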
